A study of Danio rerio with 9 samples.

Results

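Genes of the glutathione and thioredoxin systems, with the superoxide dismutases, catalase, sulfiredoxin and the quinone reductase nqo1, were taken by name from the deposited zebrafish (Danio rerio) intestine table, which gave 49 of 26983 genes. They comprise 17 glutathione S-transferases, 8 glutathione peroxidases, 6 peroxiredoxins with the sulfiredoxin gene srxn1, 4 glutaredoxins, 4 genes of the thioredoxin system, 5 superoxide dismutase and catalase genes, 3 genes of glutathione synthesis and recycling, and nqo1. RNA from intestine was sequenced in 9 libraries, 3 each of the groups coded FM, SBM and D3, in a study of soybean meal enteritis and β,β-dimethylacryloyl shikonin, a naphthoquinone made by plants. What the codes stand for is not written out in the labels, which name no strain, age, sex, diet, dose or time either. They do not say whether a library came from 1 fish or a pool, so the tests measure the spread between these libraries only, which may be technical in part. Total counts were 34436497 to 36203230 per library, and the 49 genes together took 0.514% to 0.761% of them.

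Glutathione is a small sulfur-containing peptide whose synthesis starts with a rate-setting step by glutamate-cysteine ligase, and the catalytic and modifier subunits of that enzyme are encoded by gclc and gclm. Glutathione peroxidases use it to reduce peroxides, glutathione S-transferases attach it to reactive or foreign compounds, and glutathione reductase (gsr) restores it with NADPH. Peroxiredoxins do similar work with thioredoxin as the electron donor, which thioredoxin reductase recharges. Many of these genes are targets of the transcription factor Nrf2, which Keap1 holds in check, and the gut lining carries them against oxidants and reactive compounds from food and microbes.

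The libraries differed in the tissue they held. Absorptive enterocyte markers were present throughout, with all 21 listed genes found, 20 detected in every library, and a summed level of 37200 to 49400 CPM (read counts scaled to a common library size, with TMM factors) in FM, 20400 to 36700 in SBM and 17300 to 30900 in D3. Hepatocyte markers, 19 of 20 found and all of these detected in every library, summed to 45700 CPM in SBM library 2 and to 24300 and 33200 in the first and second D3 libraries, while the other 6 ranged from 1920 to 8080. Much of the sum in these 6 was apobb.1, at 4510 of 5040 CPM in FM library 3 and 1520 of 1920 in SBM library 3. The marker fabp10a alone was at 3920, 1760 and 2050 CPM in the 3 high libraries. In the other 6 it ran from 32.1 to 297, the latter in FM library 2. Oocyte markers, all 18 found and detected everywhere, summed to 4960 CPM in SBM library 1 and to 5110 in D3 library 3, while the other 7 ranged from 65.3 to 684. Exocrine pancreas markers, 19 of 20 found, summed to 154000 to 206000 CPM in FM, 94600 to 188000 in SBM and 76300 to 122000 in D3. The D3 group thus held 2 libraries high in hepatocyte genes and 1 high in oocyte genes, and within it a treatment effect and this tissue content cannot be told apart. Across all tested genes, SBM library 1 was closer to D3 library 3 (Spearman 0.975) than to the other two SBM libraries (0.869 and 0.92), which bears on every mean of SBM and D3. The counts of this pair still differed by more than sampling noise, so they were kept as separate libraries. Whether their 2 labels are in the right order was not tested, and if they were exchanged, the SBM and D3 values below would change. In such whole-tissue libraries, fewer cells of a type and less RNA per cell cannot be told apart either.

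The most abundant members per length were peroxidases and transferases. Levels between genes are compared in the deposited FPKM values (fragments per kilobase of gene, scaled to the library's total), as mean ± SD of 3 libraries. FPKM scales with total counts alone and CPM here also with TMM factors, so the same gene can order libraries differently on the 2 scales. In FM the glutathione peroxidase gene gpx1b stood at 730 ± 48.4 FPKM and the pi-class transferase gene gstp1 at 647 ± 41.3. Below them lay prdx2 at 468 ± 108 FPKM and gpx4a, whose product reduces lipid peroxides in membranes, at 460 ± 116. A further group lay close together in FM: prdx6 at 363 ± 67 FPKM, the rho-class transferase gene gstr at 346 ± 38.4, gpx4b at 339 ± 40.8 and the cytosolic superoxide dismutase gene sod1 at 287 ± 16.7. Means differed by less than 2 times the larger SD within the pairs gpx1b with gstp1 and prdx2 with gpx4a. The same held among prdx6, gstr and gpx4b. For gpx1b the SDs were wider in SBM and D3, at 706 ± 416 and 645 ± 176 FPKM. For prdx2 they were narrower than in FM, at 351 ± 73.6 and 415 ± 67.8 FPKM. The order of the leading genes in SBM and D3 is not resolved by 3 libraries.

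Genes of the rate-setting and repair steps stood far lower. In FM the ligase subunit genes gclm and gclc were at 18.6 ± 6.8 and 16.5 ± 3.7 FPKM, gsr at 10 ± 1.72, and srxn1, whose product repairs over-oxidised peroxiredoxins, at 1.01 ± 0.244. Summed by role, the transferases made up 29.3% to 36% of the members' FPKM in a library, the glutathione peroxidases 24.7% to 32.3% and the peroxiredoxins with srxn1 14.6% to 20.4%. The transferases had the largest share in 7 of the 9 libraries and the peroxidases in FM library 2 and D3 library 2. Superoxide dismutases and catalase followed with 8.44% to 11.8%, and glutathione synthesis and recycling held 0.565% to 1.17%.

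**Figure D1:**
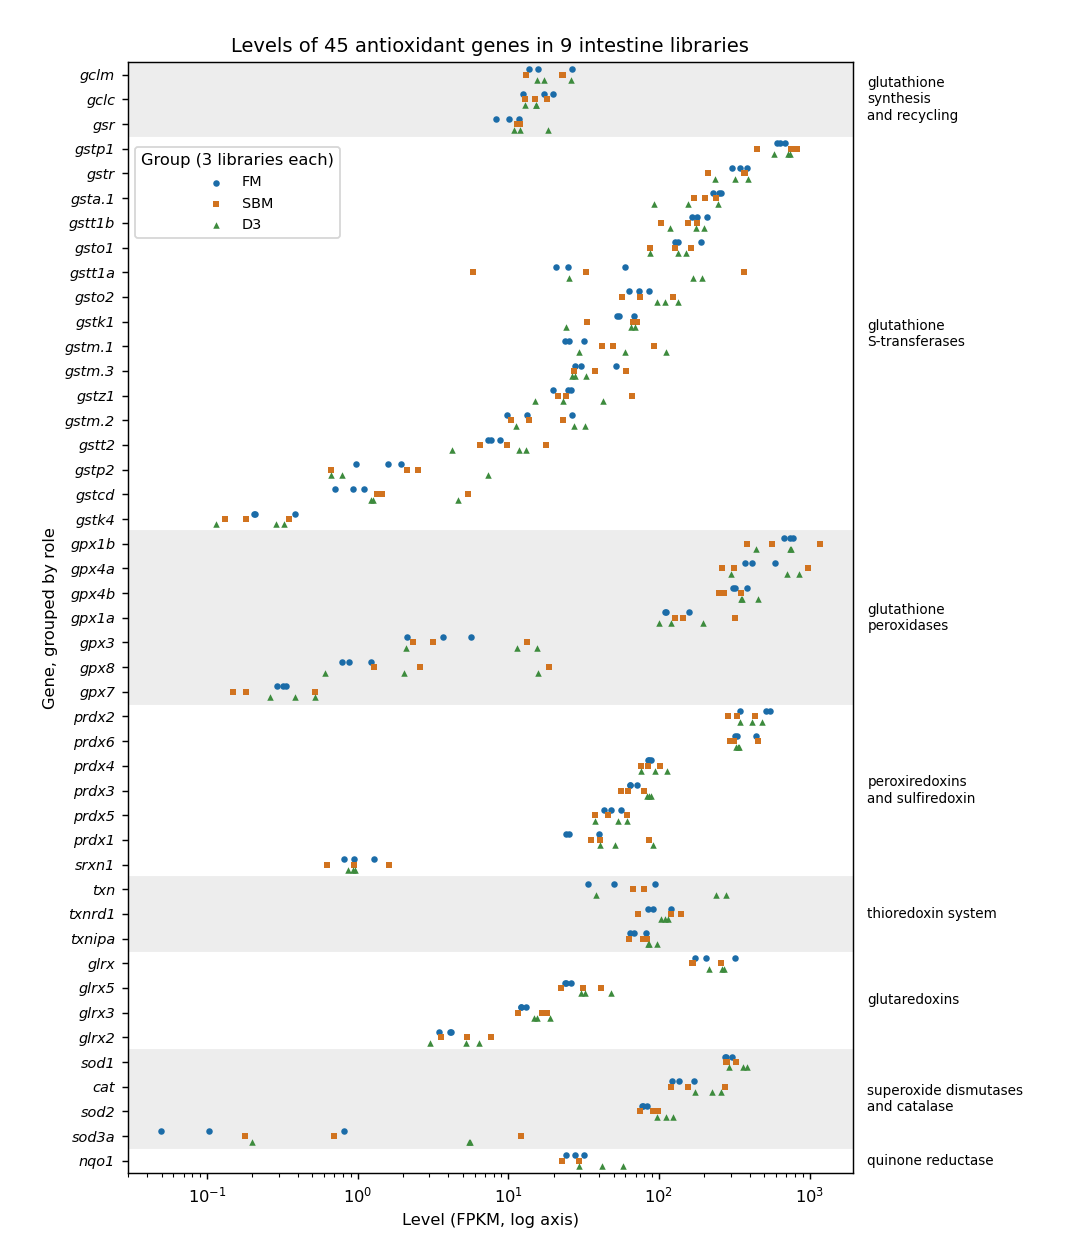
Deposited FPKM level (log axis) of the 45 tested members in each of the 9 libraries, by role; each symbol is 1 library, coloured by group (FM, SBM, D3). The points of a gene mostly overlap between groups, gpx1b and gstp1 lie highest, and gstt1a, gpx8 and sod3a spread most widely between libraries.

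Of the 49 members, 45 passed the filter on low counts and 4 did not. The gastrointestinal-type peroxidase gene gpx2 held 1 read in FM library 3, 1 in SBM library 2 and none in the other 7 libraries. The other 3 were the transferase gene gstk2 with 0 to 9 reads per library, the extracellular dismutase gene sod3b with 0 to 9, and txnipb, a second gene for the thioredoxin-binding protein Txnip, with 0 to 10. At this depth they were near the detection limit in all 3 groups.

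No member passed the test in any comparison. edgeR called 0 of 45 members in SBM against FM (smallest adjusted p among them 0.54), 0 in D3 against FM (0.33) and 0 in D3 against SBM (1), and a test for any difference over the 3 groups called 0 (0.61). The same held for all genes, with 0% of 19450 called in each comparison. At an unadjusted p under 0.05 edgeR with TMM factors again took 0 members in every comparison. Of all genes 8.94% passed in SBM against FM (5.53% higher and 3.41% lower in SBM) and 15.2% in D3 against FM (8.05% and 7.14%). In D3 against SBM 2.07% passed (0.746% and 1.32%) and in the test over 3 groups 7.1%. With library size alone edgeR took 1 member in SBM against FM (beside 10.1% of all genes) and 5 in D3 against FM (beside 16.3%). It took 1 in D3 against SBM (beside 1.9%). DESeq2 and limma-voom also called 0 members at an adjusted p under 0.05. At an unadjusted p under 0.05 DESeq2 took 1 member in SBM against FM, 3 in D3 against FM and 2 in D3 against SBM. Beside these stood 12.7%, 19.3% and 2.82% of all genes. In the same order limma-voom took 0, 1 and 1, beside 4.95%, 9.9% and 1.7% of all genes. The median log2 fold change of the members stood at −0.15 in SBM against FM, 0.03 in D3 against FM and 0.1 in D3 against SBM, beside −0.01, 0.04 and 0.03 over all genes. In SBM against FM 17 members had a positive and 28 a negative value (49.5% and 50.5% of all genes), in D3 against FM 24 and 21 (52.4% and 47.6%), and in D3 against SBM 27 and 18 (54.7% and 45.3%). With library size scaling alone the median of all genes moved to 0.26 in SBM against FM and 0.3 in D3 against FM, and the members' median to 0.08 and 0.31, so the negative sign in SBM against FM depends on the scaling.

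For many members the data, with TMM scaling, bound the change as well as failing to show one. The 95% interval of the log2 fold change lay wholly within a 2-fold change either way for 19 of 45 members in SBM against FM (42.2%, beside 33.6% of all genes), 18 in D3 against FM (40%, beside 31%) and 22 in D3 against SBM (48.9%, beside 41.9%). These intervals are per gene and not adjusted for their number. They hold for TMM scaling and were not made with library size alone. That scaling moved the log2 fold change in D3 against FM from 0.31 to 0.59 for glrx5 and from −0.45 to −0.18 for gclc. The TMM interval lay within a 2-fold change in all 3 comparisons for 16 members (35.6% of 45). They were gclc, gclm, gsr, glrx2, glrx3, glrx5, gsto2, gstp1, prdx3, prdx4, prdx5, prdx6, sod1, sod2, txnipa and txnrd1. They include both ligase subunits and the reductases of glutathione and thioredoxin. The share of all genes was not counted over the 3 comparisons together, so the 16 are no result about the members as a set. For sod2, the mitochondrial dismutase gene, the interval ran from −0.48 to 0.25 in SBM against FM and from −0.16 to 0.56 in D3 against FM. For sod3a it ran from −0.46 to 8.05 in SBM against FM, so that its change is hardly bounded.

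**Figure D2:**
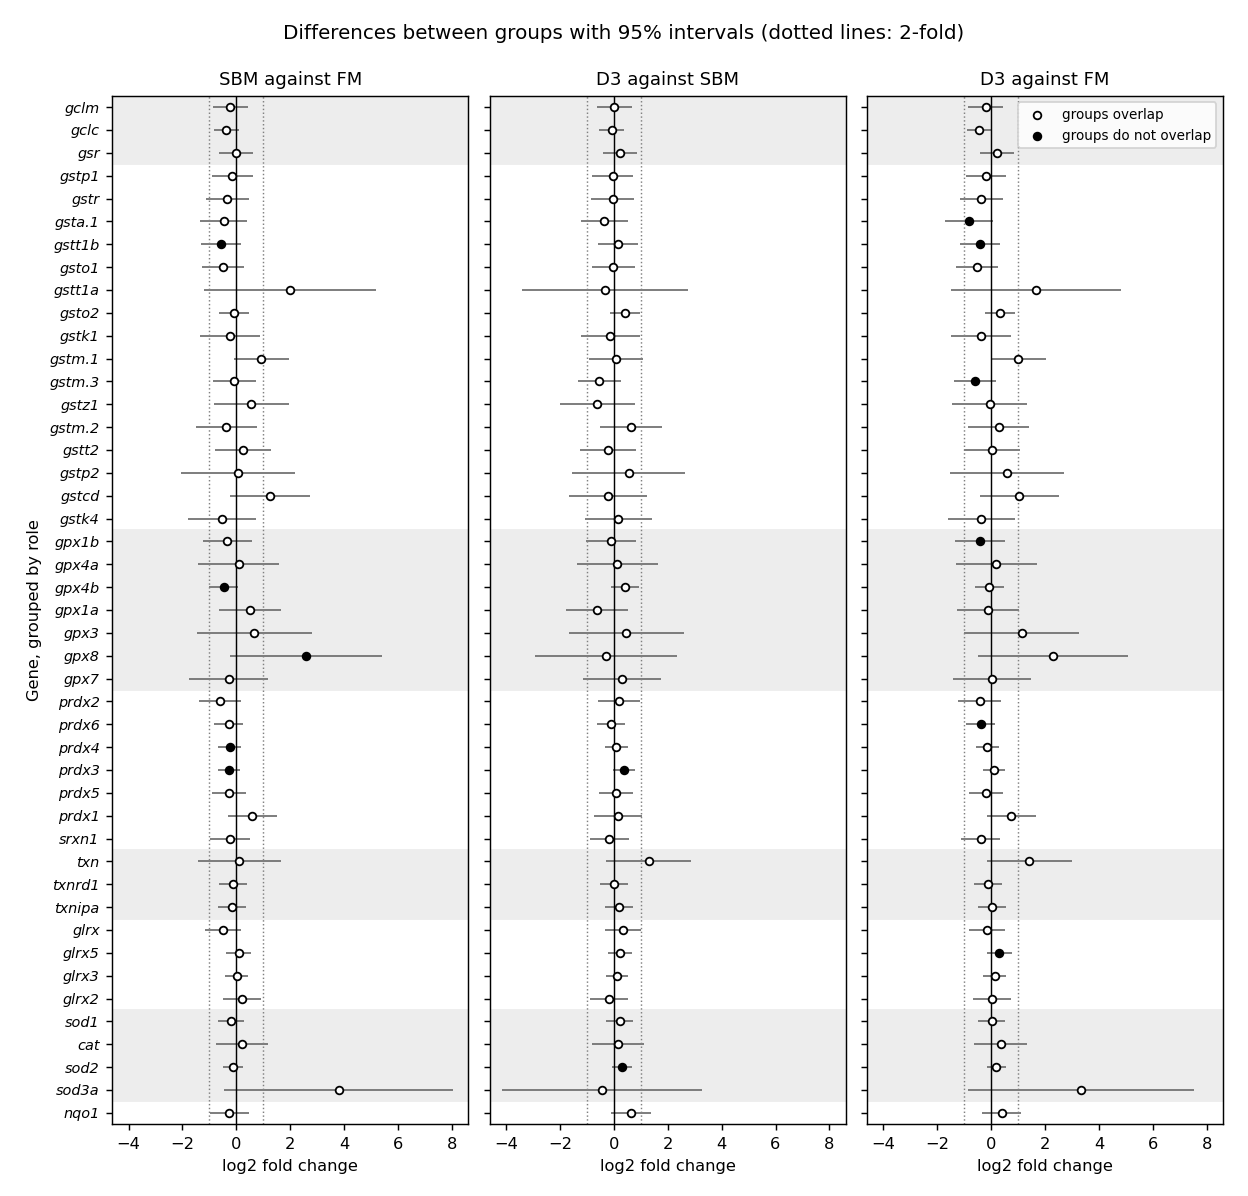
Log2 fold change of the 45 tested members in the 3 comparisons (points) with a 95% interval calculated back from edgeR's quasi-likelihood F-test (lines). Filled points mark genes whose 2 groups of 3 libraries do not overlap and dotted lines a 2-fold change. Intervals are widest for sod3a and gstt1a, and 5, 2 and 6 genes have groups that do not overlap.

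The groups did not overlap for 5 members in SBM against FM, 1 with higher and 4 with lower levels in SBM (11.1% of 45). Over all genes this share was 19.9%, with 9.56% higher and 10.3% lower. In D3 against FM it held for 6 members, of which 1 was higher and 5 lower in D3 (13.3%), beside 26.4% of all genes, with 12.8% higher and 13.6% lower. In D3 against SBM it held for 2 members, both higher in D3 (4.44%), beside 4.56% of all genes, with 2% higher and 2.56% lower. None of these 3 totals exceeded that of all genes. With library size scaling alone the set of separated members changed, and each member in it was higher in the group named first. Only gpx8 in SBM against FM, glrx5 in D3 against FM and prdx3 in D3 against SBM separated with both scalings. With library size alone the separated members in SBM against FM were 3 (gpx8, gstcd and gstm.1; 6.67%, beside 15.4% of all genes). In D3 against FM they were 9 (cat, glrx3, glrx5, gstcd, gsto2, prdx1, prdx3, sod2 and txnipa; 20%, beside 30.6%). In D3 against SBM they were gpx4b, prdx3 and txnipa (6.67%, beside 4.27%). None of the members below FM on TMM-scaled CPM stayed apart from FM on that scale. Each statement below that groups overlapped or lay apart therefore holds for TMM-scaled CPM, unless another scaling is named. D3 was compared with both SBM and FM, and the comparisons share those libraries, so their values are given side by side below and are not independent of each other.

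Genes of glutathione synthesis and recycling varied little. The catalytic ligase gene gclc was at 67.9, 56.5 and 43.9 CPM in FM libraries 1, 2 and 3, at 46.6, 46.2 and 37.7 in SBM, and at 45.3, 38.2 and 40.1 in D3. FM libraries 1 and 2 were the highest of the 9, and FM library 3 lay within the range of the other groups. The log2 fold change was −0.37 ± 0.20 (SE) in SBM against FM and −0.45 ± 0.20 in D3 against FM. The modifier gene gclm stood at 57.1, 32.6 and 30.4 CPM in FM, 37.2, 29.6 and 36.6 in SBM and at 29.3, 32 and 43.1 in D3. The reductase gene gsr was at 31.7, 26.3 and 22.9 CPM in FM, 24.6, 32.2 and 22.7 in SBM and at 43.1, 27.9 and 22.5 in D3. The 3 groups overlapped for both genes, with FM library 1 highest for gclm and D3 library 1 for gsr.

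Among the glutathione S-transferases several abundant genes were lowest in the libraries high in oocyte genes. The pi-class gene gstp1 was at 711, 602 and 671 CPM in FM, 348, 875 and 564 in SBM and at 653, 636 and 454 in D3. The rho-class gene gstr, of a class found in fish, was at 509, 540 and 462 CPM in FM, 235, 571 and 393 in SBM and at 497, 405 and 265 in D3. For both, SBM library 1 and D3 library 3 were the 2 lowest of the 9 and SBM library 2 the highest. The theta-class gene gstt1b was at 294, 245 and 242 CPM in FM, 111, 230 and 184 in SBM and at 216, 241 and 128 in D3. All SBM and D3 libraries thus lay below the lowest FM library, with log2 fold changes of −0.57 ± 0.33 and −0.41 ± 0.33 against FM. The alpha-class gene gsta.1 was at 380, 353 and 346 CPM in FM, 189, 371 and 218 in SBM and at 316, 118 and 176 in D3, so that D3 lay below FM (−0.82 ± 0.39) and SBM overlapped it. Enterocyte markers, too, summed to less in each SBM and D3 library than in any FM library. Their part in these differences was not tested.

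The mu-class genes, which lie in a cluster of similar copies, did not vary alike. The gene gstm.1 was at 37.6, 27 and 30.9 CPM in FM, 83.3, 61.4 and 36.3 in SBM and at 30, 60.2 and 101 in D3. Its log2 fold change was 0.92 ± 0.45 in SBM against FM and 1.00 ± 0.45 in D3 against FM, the smallest p among the members in the latter, with SBM library 1 and D3 library 3 the highest of the 9. Its relative gstm.2 was at 46.9, 16.9 and 24.3 CPM in FM, 18.6, 19.6 and 30.2 in SBM and at 49.8, 42.2 and 15.2 in D3, where the 2 libraries high in hepatocyte genes stood above the third (0.65 ± 0.50 in D3 against SBM). The third copy, gstm.3, was at 41.6 ± 15.3 CPM (SD, n = 3) in FM, where the lowest library was at 32.6, and at 23.7, 44.2 and 50.6 in SBM and at 27.3, 32 and 22.9 in D3. D3 lay below FM for gstm.3 (−0.60 ± 0.34), the closest pair of libraries being at 32 and 32.6 CPM, and the value against SBM was −0.53 ± 0.34. The FPKM ratio of gstm.1 to gstm.2 within a library was 1.21 to 2.41 in FM, 1.82 to 6.79 in SBM and 0.913 to 10.1 in D3. How reads were shared between near-identical copies is not given in the sources used here, so the split between mu, pi, theta and kappa copies is uncertain.

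The widest spread among the transferases was that of the theta-class gene gstt1a. It was at 21.2, 58.2 and 26.2 CPM in FM, 25.5, 390 and 4.38 in SBM and at 170, 148 and 19.9 in D3, a range of 89-fold. The 3 libraries high in hepatocyte genes were the 3 highest, and within SBM the lowest and the highest library of all 9 stood side by side. The FPKM ratio of gstt1a to gstt1b followed, at 2.35 in SBM library 2, 1.09 and 0.853 in D3 libraries 1 and 2, and 0.033 to 0.33 in the other 6. Of the remaining named transferases, gstcd was at 2.18 to 3.46 CPM in FM, 12.4, 4.6 and 2.99 in SBM and at 3.21, 3.34 and 10.8 in D3 (1.25 ± 0.65 in SBM against FM). The omega-class gene gsto2 was at 95.1, 78 and 72.3 CPM in FM, 104, 65.7 and 60.3 in SBM and at 104, 91.7 and 113 in D3 (0.43 ± 0.25 in D3 against SBM). Both genes had overlapping groups in these comparisons. The other tested members of the family are given by their range over the 9 libraries. The omega-class gsto1 ran from 106 to 303 CPM, the kappa-class gstk1 from 26.1 to 98.5 and gstk4 from 0.36 to 1.51, the theta-class gstt2 from 5.78 to 20.7 and the pi-class gstp2 from 0.411 to 4.51. The zeta-class gene gstz1, whose product acts in tyrosine breakdown, ran from 14 to 84.3 CPM and was highest in SBM library 2.

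The 2 genes for the lipid peroxide-reducing Gpx4 differed in their spread. The copy gpx4b was at 310, 369 and 328 CPM in FM, 190, 283 and 254 in SBM and at 393, 299 and 272 in D3. Each SBM library lay below every FM library (−0.47 ± 0.23), while D3 overlapped both groups (0.41 ± 0.23 against SBM). Its relative gpx4a was at 488, 663 and 446 CPM in FM, 281, 1180 and 226 in SBM and at 714, 859 and 268 in D3. The 3 libraries high in hepatocyte genes were the 3 highest for gpx4a, and the FPKM ratio of gpx4a to gpx4b was 3.56, 1.55 and 2.45 in them, against 0.76 to 1.53 in the other 6.

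Of the gpx1 copies, gpx1b was at 668, 703 and 781 CPM in FM, 286, 576 and 849 in SBM and at 629, 641 and 333 in D3. All 3 D3 libraries were under the lowest FM library (−0.43 ± 0.40), while SBM spanned the FM range, with its highest and lowest values the extremes of all 9 libraries. Its copy gpx1a stood at 126, 171 and 126 CPM in FM, 123, 377 and 104 in SBM and at 97.4, 189 and 103 in D3, highest in SBM library 2. The gene gpx8, whose mammalian product sits in the endoplasmic reticulum, was at 1.58, 2.11 and 1.46 CPM in FM, 25.2, 2.42 and 3.4 in SBM and at 0.942, 3.12 and 21.4 in D3. Each SBM library lay above every FM library (2.59 ± 1.23), and D3 overlapped FM (2.3 ± 1.22). The 2 libraries high in oocyte genes stood far above the other 7, and without them the log2 fold change was 0.78 in SBM against FM and 0.24 in D3 against FM. The secreted form gpx3 ran from 1.32 to 11.5 CPM over the 9 libraries and gpx7 from 0.121 to 0.588.

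Among the peroxiredoxins, prdx3 to prdx6 varied less between libraries than prdx1 and prdx2. The mitochondrial peroxiredoxin gene prdx3 was at 95.5, 83.1 and 88.3 CPM in FM, 63, 78.3 and 77.8 in SBM and at 103, 98.6 and 84.7 in D3. Each SBM library lay below every FM and every D3 library, with log2 fold changes of −0.28 ± 0.18 in SBM against FM and 0.39 ± 0.18 in D3 against SBM, the latter the smallest p among the members in that comparison. The endoplasmic reticulum form, prdx4, was at 84.1, 85.2 and 88.2 CPM in FM, 76.5, 79.6 and 61.4 in SBM and at 81.5, 65.3 and 86.5 in D3. SBM lay below FM for prdx4 (−0.24 ± 0.19), and library size scaling alone gave 0.01 for prdx4 and −0.02 for prdx3 in that comparison. The gene prdx2, of a cytosolic form abundant in mammalian red cells, was at 400, 572 and 651 CPM in FM, 292, 523 and 246 in SBM and at 483, 416 and 307 in D3 (−0.61 ± 0.34 in SBM against FM). Red cell markers, all 7 found, summed to 262 to 395 CPM in FM, to 1360 and 1430 in SBM library 2 and D3 library 2, and to 145 to 186 in the other 4. Their part in the prdx2 levels was not tested.

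The gene prdx6, whose product carries a single active cysteine, was at 466, 335 and 347 CPM in FM, 238, 347 and 350 in SBM and at 308, 293 and 272 in D3. D3 lay below FM (−0.39 ± 0.23), and SBM overlapped both. The Nrf2 target prdx1 was at 55.3, 33.8 and 34.3 CPM in FM, 90.8, 58.5 and 35.8 in SBM and at 61, 48.8 and 97.2 in D3 (0.75 ± 0.40 in D3 against FM). SBM library 1 and D3 library 3 were again the highest. The repair gene srxn1 was at 2.6, 3.96 and 3.11 CPM in FM, 2.32, 2.09 and 3.81 in SBM and at 2.69, 2.57 and 2.11 in D3, with overlap between all groups. The remaining peroxiredoxin gene, prdx5, ran from 25.8 to 48.6 CPM.

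In the thioredoxin system, 1 gene stood out in 2 of the 3 D3 libraries. The gene listed as txn was at 67.6, 23.4 and 37.4 CPM in FM, 36.9, 59.9 and 42.3 in SBM and at 173, 150 and 21.1 in D3. D3 libraries 1 and 2 were above all others and D3 library 3 was the lowest of the 9, and the log2 fold changes of 1.42 ± 0.69 against FM and 1.31 ± 0.69 against SBM had adjusted p of 0.35 and 1. Both D3 libraries were high in hepatocyte genes, whose part in the txn levels was not tested. SBM library 2, with the largest hepatocyte sum (45700 CPM), had txn at 59.9 CPM, below FM library 1 at 67.6. Without the 3 libraries high in hepatocyte genes the log2 fold change of txn was −1.09 against FM and −0.97 against SBM. This leaves out both D3 libraries with high txn, with D3 library 3 as the only D3 library left. RefSeq lists txn as an older name of txnb. The other cytosolic thioredoxin gene, txna, stands in the table under its clone name, zgc:56493, which the choice of members by name does not take in. There it was at 245, 214 and 238 CPM in FM, 158, 230 and 208 in SBM and at 288, 232 and 182 in D3, with overlap between all groups.

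The reductase and the inhibitor of thioredoxin had overlapping groups in all 3 comparisons on TMM-scaled CPM. The reductase gene, listed as txnrd1 and now named txnrd3 in RefSeq, was at 403, 272 and 313 CPM in FM, 307, 253 and 343 in SBM and at 334, 314 and 263 in D3. The Txnip gene txnipa was at 196, 242 and 216 CPM in FM, 146, 251 and 188 in SBM and at 227, 224 and 225 in D3. With library size scaling alone each D3 library lay above every FM and every SBM library for txnipa. The FPKM ratio of txn to txnrd1 was 2.41 and 2.21 in D3 libraries 1 and 2 and 0.373 to 1.1 elsewhere. Glutaredoxins use glutathione to reduce protein disulfides or to carry iron-sulfur clusters. Most abundant per length was glrx, at 339, 208 and 186 CPM in FM, 132, 184 and 199 in SBM and at 237, 246 and 171 in D3. The gene glrx5, which serves mitochondrial iron-sulfur clusters, was at 22.6, 23.3 and 22.8 CPM in FM, 29.1, 22 and 21.5 in SBM and at 24.8, 26.1 and 34.2 in D3. Each D3 library lay above every FM library for glrx5 (0.31 ± 0.20). The other glutaredoxin genes, glrx2 and glrx3, ran from 3.77 to 8.35 and from 17.7 to 25.6 CPM.

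Superoxide dismutases differed by gene more than by group. The cytosolic sod1 was at 238, 249 and 239 CPM in FM, 182, 246 and 202 in SBM and at 281, 266 and 187 in D3. It was lowest in the 2 libraries high in oocyte genes on TMM-scaled CPM, but not on FPKM. The mitochondrial sod2 was at 90.7, 81.8 and 85.9 CPM in FM, 75.5, 84.4 and 78.7 in SBM and at 104, 90.3 and 102 in D3. Each D3 library lay above every SBM library for sod2 (0.32 ± 0.16), but with library size scaling alone these groups overlapped. The extracellular form sod3a was at 0.132, 0.997 and 0.0647 CPM in FM, 0.678, 16 and 0.168 in SBM and at 6.15, 6.05 and 0.192 in D3, with log2 fold changes of 3.79 ± 1.86 and 3.35 ± 1.83 in SBM and D3 against FM. The 3 high values are the libraries high in hepatocyte genes. Without them the log2 fold change was 0.03 in SBM against FM and −1.13 in D3 against FM.

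Catalase, the peroxisomal enzyme that breaks down hydrogen peroxide, followed the same libraries. Its gene cat was at 331, 443 and 374 CPM in FM, 318, 765 and 238 in SBM and at 517, 599 and 354 in D3, and the 3 libraries high in hepatocyte genes were the 3 highest. The quinone reductase gene nqo1, a standard readout of Nrf2 in mammals, was at 55.4, 46.7 and 43.2 CPM in FM, 30.1, 53.6 and 37.9 in SBM and at 87.6, 63.3 and 39.1 in D3 (0.64 ± 0.32 in D3 against SBM). D3 libraries 1 and 2 were the highest of the 9 and D3 library 3 lay between SBM libraries. Without the 3 libraries high in hepatocyte genes the log2 fold change in D3 against SBM was 0.13, with D3 library 3 as the only D3 library left. SBM library 2, highest in hepatocyte genes, had nqo1 within the FM range, and the part of hepatocyte content was not tested.

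**Figure D3:**
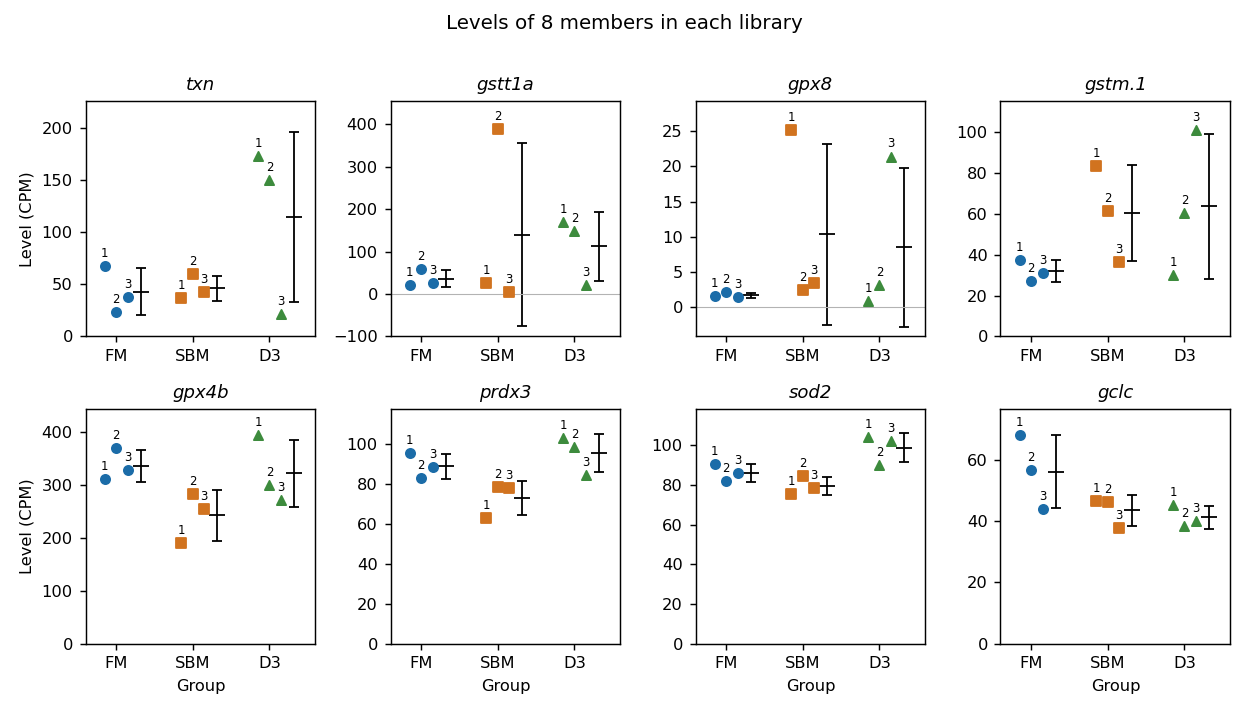
Level (CPM) of 8 members in each library; numbers beside the symbols are library numbers, and the bar to the right of a group is its mean ± SD (n = 3). High values of txn are D3 libraries 1 and 2, of gstt1a also SBM library 2, and of gpx8 and gstm.1 SBM library 1 and D3 library 3, while gpx4b, prdx3, sod2 and gclc vary little.

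Some members were highest or lowest in the libraries high in hepatocyte or oocyte genes. In 5 of 45 members (cat, gpx3, gpx4a, gstt1a and sod3a; 11.1%) the 3 libraries high in hepatocyte genes were all above the other 6, which held for 3.78% of all genes, and for 0 members were they all below (1.05% of all genes). In 6 members (glrx2, glrx5, gpx8, gstcd, gstm.1 and prdx1; 13.3%) both libraries high in oocyte genes were above the other 7, beside 27.3% of all genes. In 13 members (28.9%, beside 19.4% of all genes) both were below on TMM-scaled CPM, among them gpx1b, gstp1, gstr, gstt1b, prdx6 and sod1. On FPKM this also held for gpx1b, gstp1, gstr and gstt1b. It did not hold for sod1, at 284 and 290 FPKM in these libraries against 274 in FM library 3. Nor did it for prdx6, at 338 FPKM in D3 library 3 against 320 in FM library 3. The count was not made on FPKM. No comparison with D3 can be freed of both kinds of library, since every D3 library is of 1 kind or the other. SBM library 3 was counted to neither kind. Its hepatocyte markers summed to 1920 CPM and its oocyte markers to 684, above the 65.3 to 183 of FM. In SBM library 3, 23 of 45 members lay below the FM range on TMM-scaled CPM (51.1%, beside 32.1% of all genes) and 3 above (6.67%, beside 27.8%). That is a single library with no replicate. Its TMM factor was 1.204, against 0.859 to 0.9187 in FM, which lowers its CPM against FM. Such counts were not made with library size scaling alone. In SBM library 1 there were 29 below and 7 above (40.9% and 37.5% of all genes) and in SBM library 2 there were 12 and 19 (28.2% and 28.5%). For D3 the numbers below and above the FM range were 12 and 19 in library 1 (29.7% and 32.9% of all genes), 13 and 15 in library 2 (30.8% and 32.8%), and 28 and 11 in library 3 (42.2% and 37.7%).

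**Figure D4:**
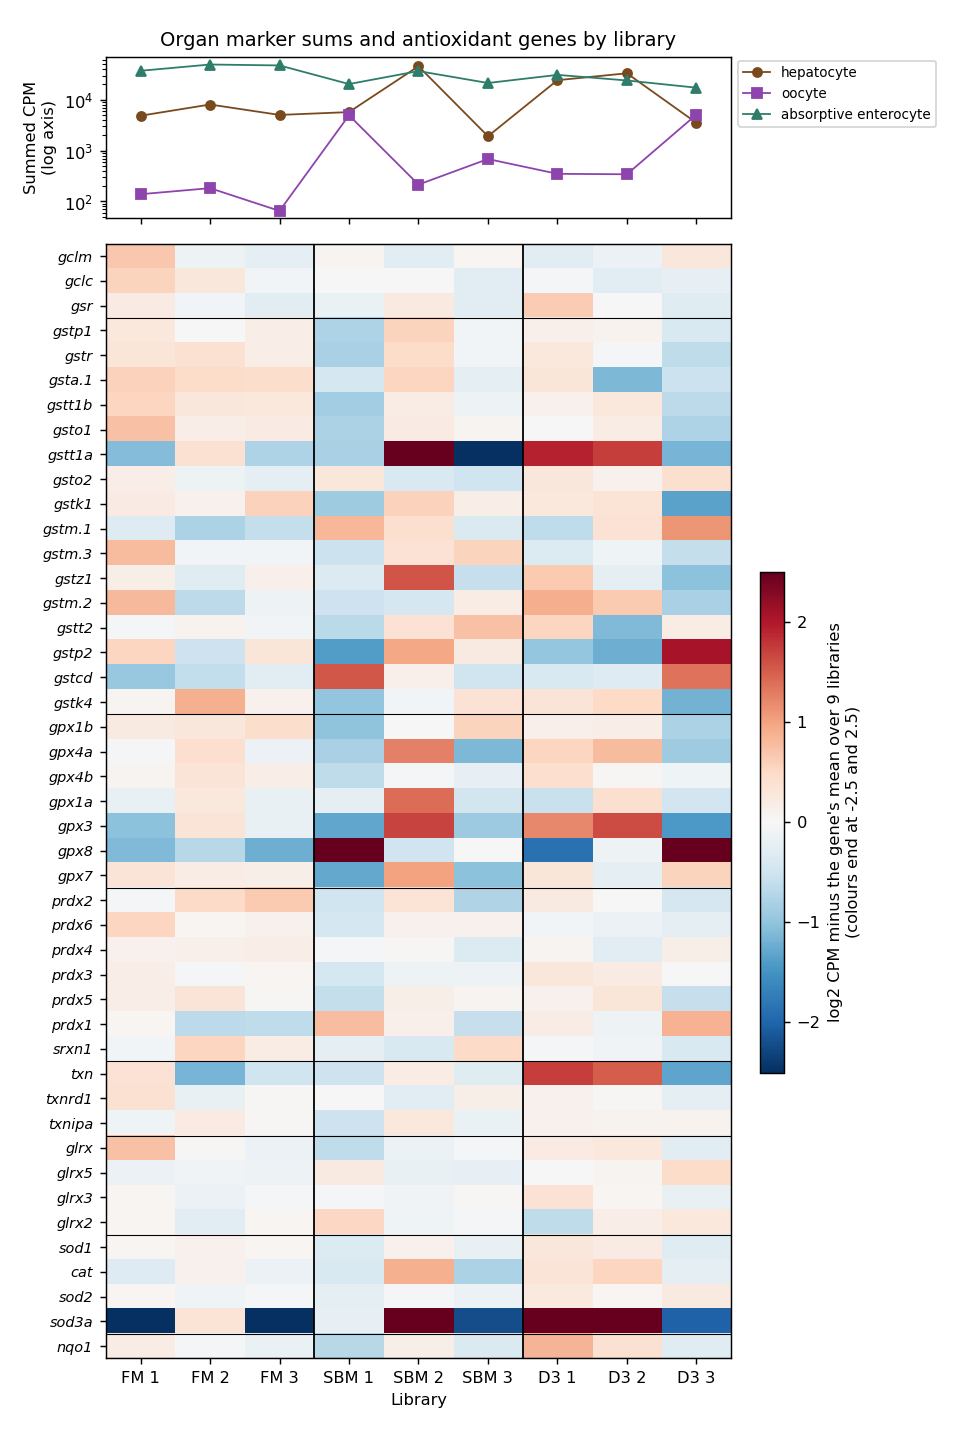
Upper panel: summed CPM (log axis) of hepatocyte, oocyte and absorptive enterocyte markers in each library; lower panel: log2 CPM of the 45 tested members, each centred on its mean over the 9 libraries (red above, blue below), with roles separated by lines. The columns of SBM library 1 and D3 library 3 look alike, as do parts of SBM library 2 and D3 libraries 1 and 2.

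With these libraries left out, the test still called almost none of the members. Without the 2 libraries high in oocyte genes edgeR called 0 members in each comparison, and the median log2 fold change of the members was 0 in SBM against FM. Without the 3 high in hepatocyte genes it called 0 members in the comparisons that involve SBM and 1, gpx8, in D3 against FM. That last value (log2 fold change 3.56, adjusted p = 0.047) rests on D3 library 3, which is high in oocyte genes, and in the same comparison 2053 of all genes were called. Without SBM library 2 alone the median of the members in SBM against FM was −0.35, beside −0.05 over all genes, with 36 of 45 negative. SBM libraries 1 and 3, which were left, had TMM factors of 1.166 and 1.204, against 0.859 to 0.9187 in FM. Higher factors lower their CPM against FM, and this setting was not run with library size alone. Its median was the lowest of those with 1 library left out, which ran from −0.35 to 0.01 in SBM against FM. Without FM library 1 there were 22 of 45 members negative, and without SBM library 1 there were 26. The share of all genes with negative values was not counted in these settings.

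Upstream of these genes, a gene for Nrf2 had its 3 highest TMM-scaled levels in FM. The gene nfe2l2a, 1 of 2 zebrafish Nrf2 genes, was at 296, 343 and 336 CPM in FM, 153, 288 and 229 in SBM and at 230, 210 and 134 in D3, each SBM and D3 library below every FM library. Its log2 fold change was −0.54 ± 0.29 in SBM against FM and −0.77 ± 0.29 in D3 against FM. The gene keap1a, for the inhibitor of Nrf2, was at 99.4, 87.6 and 84.8 CPM in FM, 37.4, 70.4 and 62.4 in SBM and at 57.8, 57.1 and 35.8 in D3, again without overlap (−0.68 ± 0.28 and −0.85 ± 0.28). With library size scaling alone SBM overlapped FM for both genes, with nfe2l2a at 276 CPM in SBM library 3 against 261 in FM library 1 and keap1a at 75.1 against 72.9 in FM library 3. The log2 fold changes in SBM against FM were then −0.31 for nfe2l2a and −0.43 for keap1a, and D3 still lay below FM. Their copies nfe2l2b and keap1b stood at 0.588 to 4.65 and 7.33 to 16.3 CPM. The haem oxygenase gene hmox1a, another Nrf2 target, had the widest gap of the 3 genes, at 233, 140 and 121 CPM in FM against 12.2 to 29.6 in SBM and 12.5 to 24.6 in D3. None of the 3 passed the edgeR test. For hmox1a the log2 fold change was −2.85 ± 0.44 in SBM against FM (adjusted p = 0.54) and −3.11 ± 0.44 in D3 against FM (adjusted p = 0.32). DESeq2 called hmox1a in both comparisons (adjusted p = 7.7e-06 and 1.5e-07) and limma-voom in neither (0.69 and 0.43). Beside it the members nqo1, txnrd1, gclm, gsr and srxn1 had groups that overlapped in all 3 comparisons. So did gclc (−0.45 ± 0.20 in D3 against FM) and prdx1 (0.75 ± 0.40) on TMM-scaled CPM. With library size alone each D3 library lay above every FM library for prdx1. Other members did separate on TMM-scaled CPM, such as gsta.1 with D3 below FM.

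**Figure D5:**
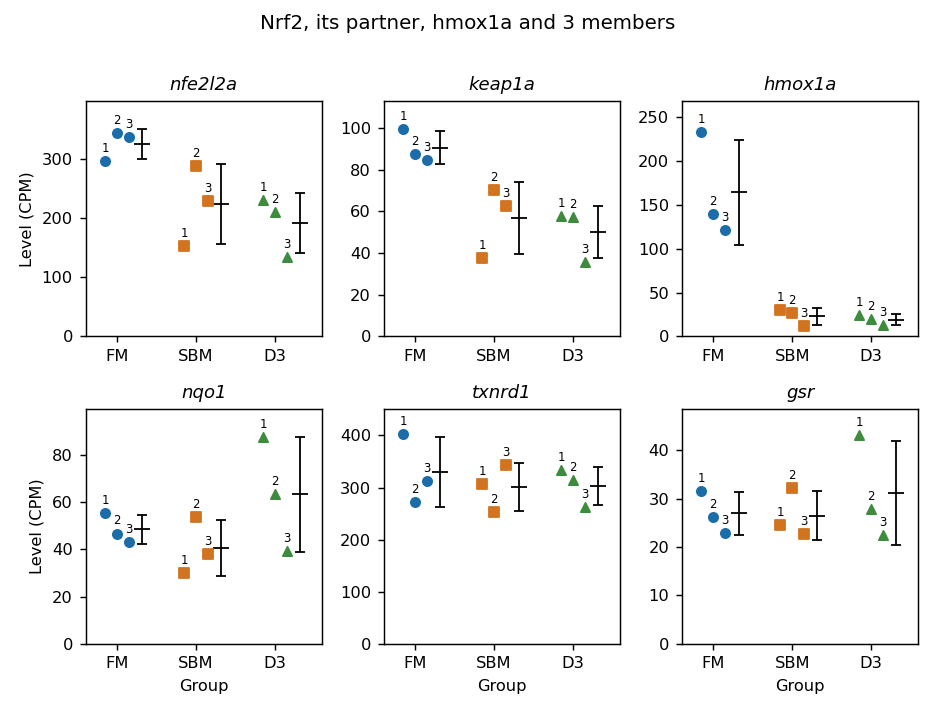
Level (CPM) of nfe2l2a, keap1a, hmox1a and the members nqo1, txnrd1 and gsr in each library; numbers are library numbers and the bar to the right of a group is its mean ± SD (n = 3). The FM libraries lie above all others for the upper 3 genes, and the groups overlap for the lower 3.

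Other genes of the pathway, in 7 lists of 252 genes with 228 found and 216 tested, gave 0 edgeR and 0 limma-voom calls in each comparison. DESeq2 called 3 of them in SBM against FM, all lower in SBM (1.39%, beside 1.22% of all genes), 13 in D3 against FM, 3 higher and 10 lower in D3 (6.02%, beside 4.72%), and 0 in D3 against SBM. Over all lists 22 genes had an unadjusted edgeR p under 0.05 in SBM against FM, 2 with higher and 20 with lower values in SBM (10.2%, beside 8.94% of all genes). In D3 against SBM there were 4, all higher in D3 (1.85%, beside 2.07%), and in D3 against FM 35, of which 11 were higher and 24 lower (16.2%, beside 15.2%). Among Nrf2 regulators and further targets, 37 of 46 tested genes had a negative log2 fold change in SBM against FM (median −0.29, beside 50.5% of all genes negative) and 38 in D3 against FM (median −0.26, beside 47.6%). These values hold for TMM scaling. With library size scaling alone the median of all genes was 0.26 and 0.3 in these comparisons, and the signs of the list were not counted. In that list the groups did not overlap for 12 genes in SBM against FM, all lower in SBM (26.1%, beside 19.9% of all genes), and for 13 in D3 against FM, 12 of them lower in D3 (28.3%, beside 26.4%). Over all 7 lists 144 of 216 genes were negative in SBM against FM and 127 in D3 against FM. The largest shares without overlap were in other lists. They were 30% for microsomal glutathione transferases in SBM against FM and 35.7% for selenoproteins in D3 against FM. The Nrf2 list joins Nrf2 genes, inhibitors and targets, so its signs give no direction for the pathway.

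For glutathione supply, the synthetase gene gss was at 7.16, 5.92 and 4.37 CPM in FM, 9.61, 5.49 and 5.38 in SBM and at 10.7, 6.9 and 9.64 in D3. The cystine carrier gene slc7a11, at 0.498 CPM or less in every library, was too low to be tested. The gene ggt1b, for a glutamyl transferase that splits extracellular glutathione, was at 58.6, 65.4 and 58.2 CPM in FM, 23, 48.9 and 30.3 in SBM and at 26.6, 30.3 and 19.4 in D3 (−1.26 ± 0.30 in D3 against FM, adjusted p = 0.32 by edgeR and 0.02 by DESeq2). The methionine adenosyltransferase gene mat2ab, upstream of cysteine supply, was at 88.8, 76.3 and 65.2 CPM in FM, 43.1, 36.2 and 31.8 in SBM and at 60.2, 37.3 and 33.3 in D3 (−1.05 ± 0.26 in SBM against FM, adjusted p = 0.54 by edgeR and 0.049 by DESeq2). For both genes each SBM and D3 library lay below every FM library. The malic enzyme gene me3, for a source of NADPH, was at 116, 74.2 and 85.2 CPM in FM, 96.4, 41.7 and 80.9 in SBM and at 200, 129 and 108 in D3. Each D3 library lay above every SBM library for me3 (1.00 ± 0.37, edgeR adjusted p = 1), and without the 3 libraries high in hepatocyte genes the value was 0.22.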

How the data were processed

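RNA from zebrafish intestine was sequenced in 9 libraries, 3 per group, grouped by sample title. Libraries were made with an mRNA-seq kit, per the labels' protocols. The authors deposited raw gene counts and FPKM values. Aligner, counting tool, genome build and strand setting: not given in the sources used here. The deposited FPKM equalled each count over 1 length per gene and the library total, within 0.00012%.

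The members were taken by gene name. They, the pathway and marker lists and the tests were chosen with earlier results of these data known. Of the 49 names 45 are current RefSeq symbols.

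Counts were fitted in R 4.3.3 with edgeR 4.0.16 (TMM factors 0.846 to 1.2, filterByExpr with minimum count 10, quasi-likelihood F-test, Benjamini-Hochberg adjustment over 19450 tested genes), all 9 libraries in 1 fit with 6 residual degrees of freedom. A gene was called at an adjusted p under 0.05. The biological coefficient of variation was 50.5%. The fit was tested on simulated data with a smaller spread than these data have (common dispersion 0.255), so that test does not measure its power here. Alternatives were library size alone, RLE factors, no filter, DESeq2 1.42.0, limma-voom (limma 3.58.1), a replicate block and each library left out. Leaving out the libraries rich in oocyte or in hepatocyte genes was chosen after seeing the data. Values in every library are given for the members with the 8 smallest p in each comparison, the 12 with the highest mean FPKM and a set of core genes. Pathway genes named are the main Nrf2 and glutathione genes and the 3 with the smallest p in each comparison.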

Additional observations from a re-analysis of the deposited data

How the results depend on the processing

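edgeR called 0 members in every comparison under library size alone, RLE factors, no filter, the replicate block and each library left out, and DESeq2 and limma-voom called 0 members too. DESeq2 called 238 of all genes in SBM against FM, 918 in D3 against FM and 5 in D3 against SBM, where edgeR called 0. Library size alone gave a median log2 fold change of the members of 0.08 in SBM against FM and 0.31 in D3 against FM. In SBM against FM the groups then did not overlap for 3 members (6.67%, beside 15.4% of all genes). It turned prdx4 in SBM against FM to 0.01. With each library left out in turn, members whose groups did not overlap numbered 5 to 19 in SBM against FM, 6 to 17 in D3 against FM and 2 to 8 in D3 against SBM, since groups of 2 overlap less readily than groups of 3. The medians ran from −0.35 to 0.01, −0.1 to 0.07 and 0.05 to 0.31. Without the 2 libraries highest in oocyte genes the groups did not overlap for 8, 17 and 13 members, and the median in SBM against FM was 0. The shares over all genes were not counted with libraries left out. These counts and the ranges above are therefore no result about the members. Without the 3 highest in hepatocyte genes these counts were 19, 41 and 27, with D3 down to 1 library that is assumed to vary like the other groups, and the medians −0.34, −0.53 and −0.08. In that setting 1 member, gpx8, and 2053 of all genes were called in D3 against FM, and the log2 fold change reversed for txn (−1.09 in D3 against FM, −0.97 in D3 against SBM), gstm.2 (−0.76 in D3 against SBM) and sod3a (−1.13 in D3 against FM). The cause was not tested. Of 731 alternative values for 43 gene results, 717 kept their direction and side of the threshold, 9 newly passed it and 5 reversed. The 43 results include genes outside the members, such as hmox1a and ggt1b. Apart from gpx8 the new passes were of such genes. For sod3a DESeq2 gave no adjusted p, which was counted as kept. Most results were picked for small p or separated groups, and the settings share libraries. The tally therefore does not measure how robust the members are.

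The replicate numbers were not taken to pair the libraries: deviations of same-numbered libraries correlated between −0.58 and 0.52, and 9 of 18 were closest to their own number. With the replicate block edgeR called 0 members in each comparison. An unadjusted p under 0.05 was then found for 1 member in SBM against FM, 1 in D3 against FM and 0 in D3 against SBM. Beside these stood 4.77%, 9.91% and 1.41% of all genes.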

Other observations

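Among neighbours of these pathways outside the enzyme families above, the gene ero1a had SBM as its low group. Its product oxidises protein disulfide isomerase in the endoplasmic reticulum and releases hydrogen peroxide. It was at 53.7, 39.4 and 41.9 CPM in FM, 20.7, 28.2 and 30.2 in SBM and at 50.4, 48.6 and 45.8 in D3, so that on TMM-scaled CPM each SBM library lay below every FM and every D3 library. The log2 fold change in D3 against SBM was 0.87 ± 0.20 with an edgeR adjusted p of 1. The selenoprotein gene sepn1 was at 5.34, 3.96 and 4.6 CPM in FM, 3.56, 4.6 and 4.07 in SBM and at 6.15, 5.81 and 10 in D3 (0.85 ± 0.28 in D3 against SBM), each D3 library being above all others.

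A list of 20 tested genes joined microsomal glutathione transferases with relatives and with others not of that family, such as faah and ptgdsa. In SBM against FM 7 had a positive and 13 a negative log2 fold change (49.5% and 50.5% of all genes). In D3 against FM there were 10 and 10 (52.4% and 47.6%). The gene clic4, of a chloride channel family with a transferase-like fold, was at 119, 111 and 118 CPM in FM, 61.7, 96.6 and 85.2 in SBM and at 60.8, 69.1 and 60.6 in D3 (−0.87 ± 0.20 in D3 against FM, adjusted p = 0.32 by edgeR and 0.015 by DESeq2). The gene gdap1, for a mitochondrial outer membrane protein, was at 6.96, 9.88 and 7.57 CPM in FM, 3.17, 4.47 and 3.04 in SBM and at 4.68, 4.16 and 3.48 in D3 (−1.19 ± 0.27 in SBM against FM, adjusted p = 0.54 by edgeR and 0.018 by DESeq2). For both genes every FM library lay above the other 6 on TMM-scaled CPM, and they were named for their small p.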
